A study of Mus musculus with 10 samples.

Results

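A set of 10 genes of the Notch pathway was compared across the 4 groups of irradiated mouse embryonic fibroblasts (MEFs), the ligand genes Jag1, Jag2, Dll1 and Dll4, the receptor genes Notch1, Notch2 and Notch3 and the target genes Hes1, Hey1 and Heyl. They were chosen by name, and each was read from the probeset that carries its symbol alone. All 10 had exactly 1 such probeset, so that they are 10 of the 19938 genes with a probeset of their own and 10 of the 35557 probesets of the table. RNA was measured on Affymetrix Mouse Gene 1.0 ST arrays, 1 array per dish. There were 3 arrays of MEFs that shared the dish with nilotinib-treated acute lymphoblastic leukemia (ALL) cells (MEFs + ALL + nilotinib), 3 of MEFs given nilotinib alone (MEFs + nilotinib), 1 of MEFs that shared the dish with ALL cells given DMSO, the solvent (MEFs + ALL + DMSO), and 3 of MEFs given DMSO alone (MEFs + DMSO). In all groups the MEFs were wild type, had been irradiated and were harvested on day 9. Nilotinib, an inhibitor of the Bcr/Abl kinase, was used at 16 nM. The ALL cells were 8093 cells, a single pro-B line from a Bcr/Abl transgenic mouse, and a Transwell membrane kept them apart from the MEFs while soluble molecules could pass. The labels give no embryonic age for the MEFs. According to the methods, the other dishes of MEFs + ALL + DMSO were left out because ALL cells had entered them.

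Notch signalling runs between neighbouring cells. A ligand of the Jagged or Delta-like family on 1 cell binds a Notch receptor on the next, and the pull that follows when the ligand is taken up by endocytosis exposes the receptor to an ADAM protease and then to gamma-secretase. The released intracellular domain enters the nucleus, where it joins the DNA-binding protein RBPJ and a Mastermind-like coactivator at target genes, among them those of the Hes and Hey repressors. In the bone marrow, stromal Notch ligands are known as signals to blood-forming cells, and in lymphoid progenitors Notch1 is the receptor known for directing cells to the T lineage.

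Between groups of 3 arrays, Jag1 and Heyl carried the largest differences of the 10 genes. With the single MEFs + ALL + DMSO array included, on which the rank of Jag2 and Notch1 rests, these were Jag1, Jag2 and Notch1. Their promoter windows, 250 bases before to 50 bases after the RefSeq transcript start on GRCm38.p6, are printed 5′ to 3′ on the gene's strand, with each CG dinucleotide in capitals. All 3 lie on the minus strand, Jag1 at chr2:137116471-137116770, Jag2 at chr12:112929446-112929745 and Notch1 at chr2:26503773-26504072.
Jag1: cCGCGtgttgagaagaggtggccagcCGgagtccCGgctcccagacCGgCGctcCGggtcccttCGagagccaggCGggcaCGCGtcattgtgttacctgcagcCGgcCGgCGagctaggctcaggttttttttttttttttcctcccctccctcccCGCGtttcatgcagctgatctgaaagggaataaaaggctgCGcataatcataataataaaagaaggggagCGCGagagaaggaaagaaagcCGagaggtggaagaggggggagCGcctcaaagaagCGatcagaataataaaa
Jag2: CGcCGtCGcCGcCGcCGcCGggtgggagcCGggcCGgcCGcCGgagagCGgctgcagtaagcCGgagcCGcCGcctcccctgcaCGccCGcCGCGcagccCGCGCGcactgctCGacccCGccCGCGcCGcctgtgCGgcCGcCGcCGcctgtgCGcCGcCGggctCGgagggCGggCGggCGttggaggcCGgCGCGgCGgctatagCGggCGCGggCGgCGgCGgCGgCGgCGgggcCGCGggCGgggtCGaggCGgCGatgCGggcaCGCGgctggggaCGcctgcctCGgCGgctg
Notch1: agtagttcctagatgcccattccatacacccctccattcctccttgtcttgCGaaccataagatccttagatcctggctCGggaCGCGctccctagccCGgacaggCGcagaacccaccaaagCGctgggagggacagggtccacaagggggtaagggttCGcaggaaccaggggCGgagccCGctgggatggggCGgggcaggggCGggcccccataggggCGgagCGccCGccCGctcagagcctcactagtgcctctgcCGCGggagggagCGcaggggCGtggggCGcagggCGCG
They are shown because these genes share a pathway and an array platform but differ in what surrounds the start site. The Jag1 window holds 22 CG dinucleotides, a number that 23.1% of all promoter windows reach, and the Notch1 window holds 23, which 21.5% reach. The Jag2 window holds 63, which 0.0304% reach, against a median of 7 over all windows. The motif GTGGGAA, a core sequence bound by RBPJ, was searched on both strands. It was found in 0 of the 8 windows of the 7 members that the RefSeq table lists, and in 6.38% of all 32851 windows. The target genes Hes1, Hey1 and Heyl had no window there, so only ligand and receptor genes were searched. The TATA-box motif TATAAA was found in 0 of the 8 and in 13.6% of all. These are counts of letters in short windows and no statement on binding.

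The array medians lay between 6.94 and 7.01 on the log2 scale, and arrays correlated with each other at 0.975 to 0.995 over all probesets. The MEFs + ALL + DMSO array stood apart on the first principal component, which held 30.8% of the variance, and replicate 2 of MEFs + ALL + nilotinib stood apart on the second, which held 18.9%. Fibroblast markers were high in every array, with a mean log2 signal over 12 genes of 11.3 to 11.4 in MEFs + ALL + nilotinib, 11.2 in MEFs + nilotinib and in MEFs + ALL + DMSO, and 11.1 to 11.2 in MEFs + DMSO. The mean over 14 pro-B and B cell markers was 5.83 to 6.05 in MEFs + ALL + nilotinib, 5.83 to 6.05 in MEFs + nilotinib, 7.94 in MEFs + ALL + DMSO and 5.94 to 6.08 in MEFs + DMSO. The mean over 10 leukocyte markers was 8.20 to 8.28, 8.02 to 8.28, 10.1 and 8.06 to 8.20 in the same order of groups. In MEFs + ALL + DMSO over MEFs + DMSO, 11 of the 14 pro-B and B cell markers and all 10 leukocyte markers passed the test as higher. Of all probesets 6.67% did. The median difference was 2.41 log2 units over all 14 and 2.15 over the 10. The RNA of this single array held more pro-B and leukocyte transcripts than that of the other arrays, beside those of MEFs. Their part in each result that uses the array was not tested. In MEFs + DMSO the means of leukocyte markers included 6.14 for Ikzf1, 8.74 for Lcp1 and 10.0 for Laptm5. With no detection call, signal over background was not measured for them. Whether dishes without ALL cells held leukocytes was not tested. In bulk RNA, fewer cells of a type and less RNA per cell cannot be told apart.

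**Figure D1:**
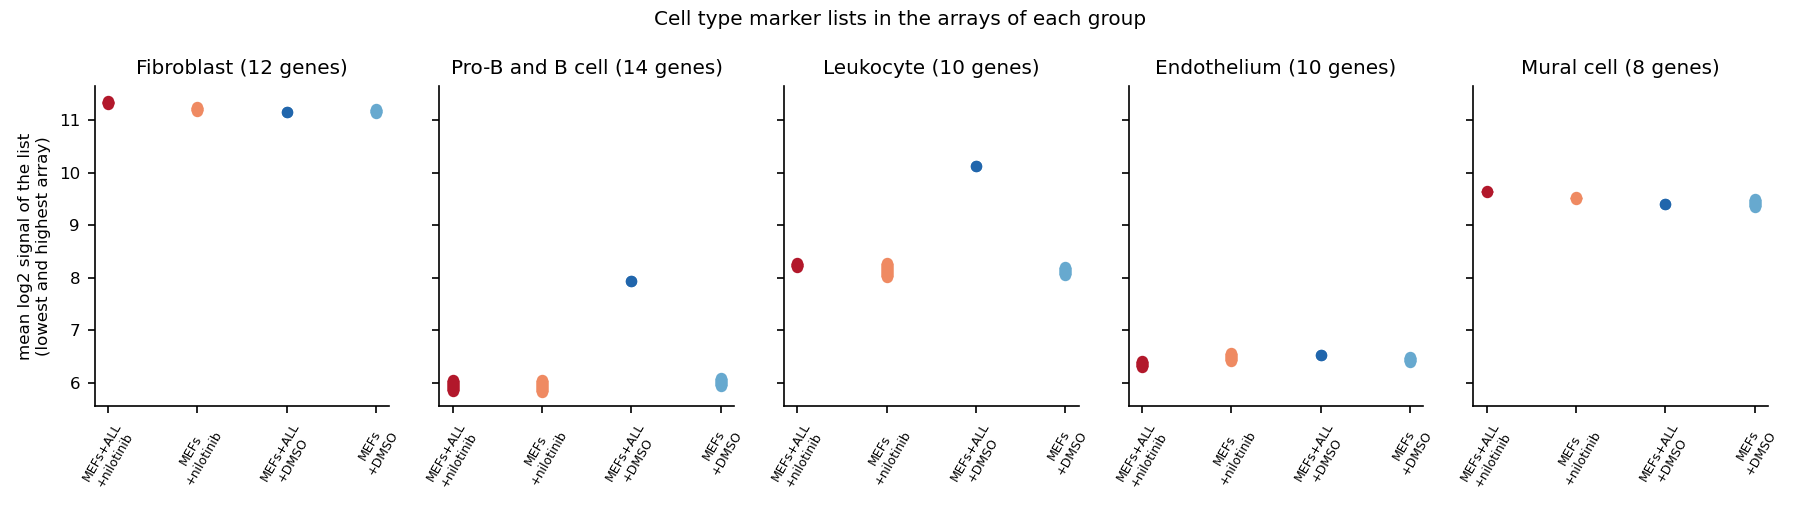
Mean log2 signal of 5 marker lists (y axis) in the 4 groups (x axis). Each bar runs from the lowest to the highest array of a group and points mark its ends. The MEFs + ALL + DMSO array lies at 7.94 for pro-B and B cell markers and at 10.1 for leukocyte markers, above every array of the other groups.

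Jag1 was the 1 member that passed the test (limma, adjusted p under 0.05 over all probesets) between groups of 3 arrays. The gene encodes Jagged1, a ligand of the Notch receptors. Its log2 signal (probeset 10488060) was 10.10, 10.09 and 10.13 in MEFs + ALL + nilotinib, 10.49, 10.51 and 10.51 in MEFs + nilotinib, 9.89 in the MEFs + ALL + DMSO array and 10.58, 10.55 and 10.50 in MEFs + DMSO. All 4 arrays from dishes with ALL cells were below all 6 arrays from dishes without them, whether nilotinib was present or not. The share of all probesets with this order was not counted. The group means were 10.11 ± 0.02, 10.50 ± 0.01 and 10.54 ± 0.04 in MEFs + ALL + nilotinib, MEFs + nilotinib and MEFs + DMSO (SD, n = 3 each).

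Jag1 fell in MEFs + ALL + nilotinib over MEFs + DMSO, by 0.44 on the log2 scale (SE 0.05, 95% interval -0.56 to -0.32, limma adjusted p = 0.0205), to 73.8% of the MEFs + DMSO level. Against MEFs + nilotinib, where the drug is the same on both sides, the difference was -0.40 (SE 0.05, interval -0.52 to -0.27, limma adjusted p = 0.0404), a level of 76.0%. The drug alone gave a difference of -0.04 (interval -0.16 to 0.08, limma adjusted p = 0.798) in MEFs + nilotinib over MEFs + DMSO. The first and the third of these comparisons share the MEFs + DMSO arrays, and the first and the second share the MEFs + ALL + nilotinib arrays. The second and the third share the MEFs + nilotinib arrays. The size of the difference moved little when an array was left out (-0.46 to -0.42 against MEFs + DMSO and -0.41 to -0.39 against MEFs + nilotinib), but the call did not hold. Against MEFs + DMSO the adjusted p was 0.0406 without replicate 2 of MEFs + ALL + nilotinib and reached 0.121 among the other 5 fits, none of which passed. Against MEFs + nilotinib none of the 6 fits passed, with adjusted p between 0.0752 and 0.194. Neither call held with only the arrays of the groups compared in the fit (adjusted p = 0.0770 and 0.260), nor the second with each array centred on its median (0.0611).

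In the MEFs + ALL + DMSO array Jag1 was lower still, by 0.65 against MEFs + DMSO (SE 0.08, interval -0.82 to -0.48, limma adjusted p = 9.56e-04), a level of 63.7%. The call held in all 3 fits that left out a MEFs + DMSO array. The difference of MEFs + ALL + nilotinib from this array was 0.21 (SE 0.08, interval 0.04 to 0.38, limma adjusted p = 0.192). In order of level Jag1 therefore ran from MEFs + ALL + DMSO over MEFs + ALL + nilotinib and MEFs + nilotinib to MEFs + DMSO, and neither the lowest pair nor the highest pair of neighbours differed past the threshold. The change with ALL cells under nilotinib and the change under DMSO differed by 0.26 (limma adjusted p = 0.181 for the interaction). The lone group was assumed to vary like the others, since 1 array has no spread of its own.

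Markers of cells known for Notch ligands were measured beside it. The mean over 10 endothelial markers was 6.30 to 6.41 in MEFs + ALL + nilotinib, 6.42 to 6.56 in MEFs + nilotinib, 6.52 in MEFs + ALL + DMSO and 6.40 to 6.49 in MEFs + DMSO, and 0 of the 10 passed the test in MEFs + ALL + nilotinib over MEFs + DMSO. In the MEFs + ALL + DMSO array 8 of the 10 were below MEFs + DMSO (58.9% of all probesets). Pecam1 and Erg were above it, by 1.41 and 1.44. The mean over 8 mural cell markers was 9.63 to 9.65, 9.49 to 9.55, 9.41 and 9.35 to 9.49 in the same order of groups. In MEFs + ALL + nilotinib over MEFs + DMSO 1 of the 8 and 2 of the 12 fibroblast markers were higher and 0 lower. Of all probesets 0.503% were higher and 0.124% lower. Of the fibroblast markers 7 of 12 were below 0 (51.0% of all probesets), among them Col1a1 (-0.36) and Col1a2 (-0.33), and the median was -0.04. Col1a1 and Col1a2 were also below MEFs + DMSO in MEFs + nilotinib, by -0.53 and -0.38. The 5 markers above 0 in MEFs + ALL + nilotinib included S100a4 (0.93), Lum (0.71) and Thy1 (0.605). The part of these marker lists in the Jag1 result was not tested. Of the pro-B and B cell markers 0 of 14 passed in MEFs + ALL + nilotinib over MEFs + DMSO. Of the leukocyte markers 1 of 10 was higher in that comparison, and the median difference of the 10 was 0.05.

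Jag2 encodes the second Jagged ligand. Its signal (probeset 10402808) was 6.51, 6.78 and 6.62 in MEFs + ALL + nilotinib, 6.78, 6.53 and 6.70 in MEFs + nilotinib, 7.41 in MEFs + ALL + DMSO and 6.79, 6.83 and 6.82 in MEFs + DMSO. The MEFs + ALL + DMSO array was above all others, and the MEFs + ALL + nilotinib arrays were below those of MEFs + DMSO without overlap. Against MEFs + DMSO the difference was -0.17 in MEFs + ALL + nilotinib (SE 0.09, interval -0.38 to 0.03, limma adjusted p = 0.391) and 0.60 in MEFs + ALL + DMSO (SE 0.13, interval 0.31 to 0.89, limma adjusted p = 0.0220), a 1.51-fold higher level in that array. Without any 1 of the MEFs + DMSO arrays the second value lay between 0.59 and 0.61 and its adjusted p between 0.0552 and 0.0555, past the threshold in none of the 3 fits. MEFs + ALL + nilotinib lay 0.77 below MEFs + ALL + DMSO (difference -0.77, limma adjusted p = 0.00964, and 0.183 in a fit of these groups alone), a level of 58.7%. The pro-B transcript Igll1, a part of the surrogate light chain, was at 11.1 in this array against a mean of 6.90 in MEFs + DMSO, and Vpreb1, its partner, at 9.39 against 6.40.

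Dll1 and Dll4 encode Delta-like ligands, Dll4 being known from endothelium and thymic epithelium. Dll1 (probeset 10448034) was at 6.49, 6.63 and 6.40 in MEFs + ALL + nilotinib, 6.62, 6.33 and 6.67 in MEFs + nilotinib, 6.26 in MEFs + ALL + DMSO and 6.38, 6.74 and 6.57 in MEFs + DMSO. Dll4 (probeset 10474958) was at 6.36, 6.37 and 6.49, at 6.54, 6.53 and 6.48, at 6.21 and at 6.45, 6.67 and 6.78 in the same order. The 3 groups of 3 overlapped for both genes, and the MEFs + ALL + DMSO array was the lowest of the 10 for both. The difference in MEFs + ALL + nilotinib over MEFs + DMSO was -0.05 for Dll1 (interval -0.33 to 0.23, limma adjusted p = 0.870) and -0.22 for Dll4 (interval -0.43 to -0.02, limma adjusted p = 0.276). The lone array differed from MEFs + DMSO by -0.30 in Dll1 and -0.42 in Dll4 (limma adjusted p = 0.305 and 0.0717).

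**Figure D2:**
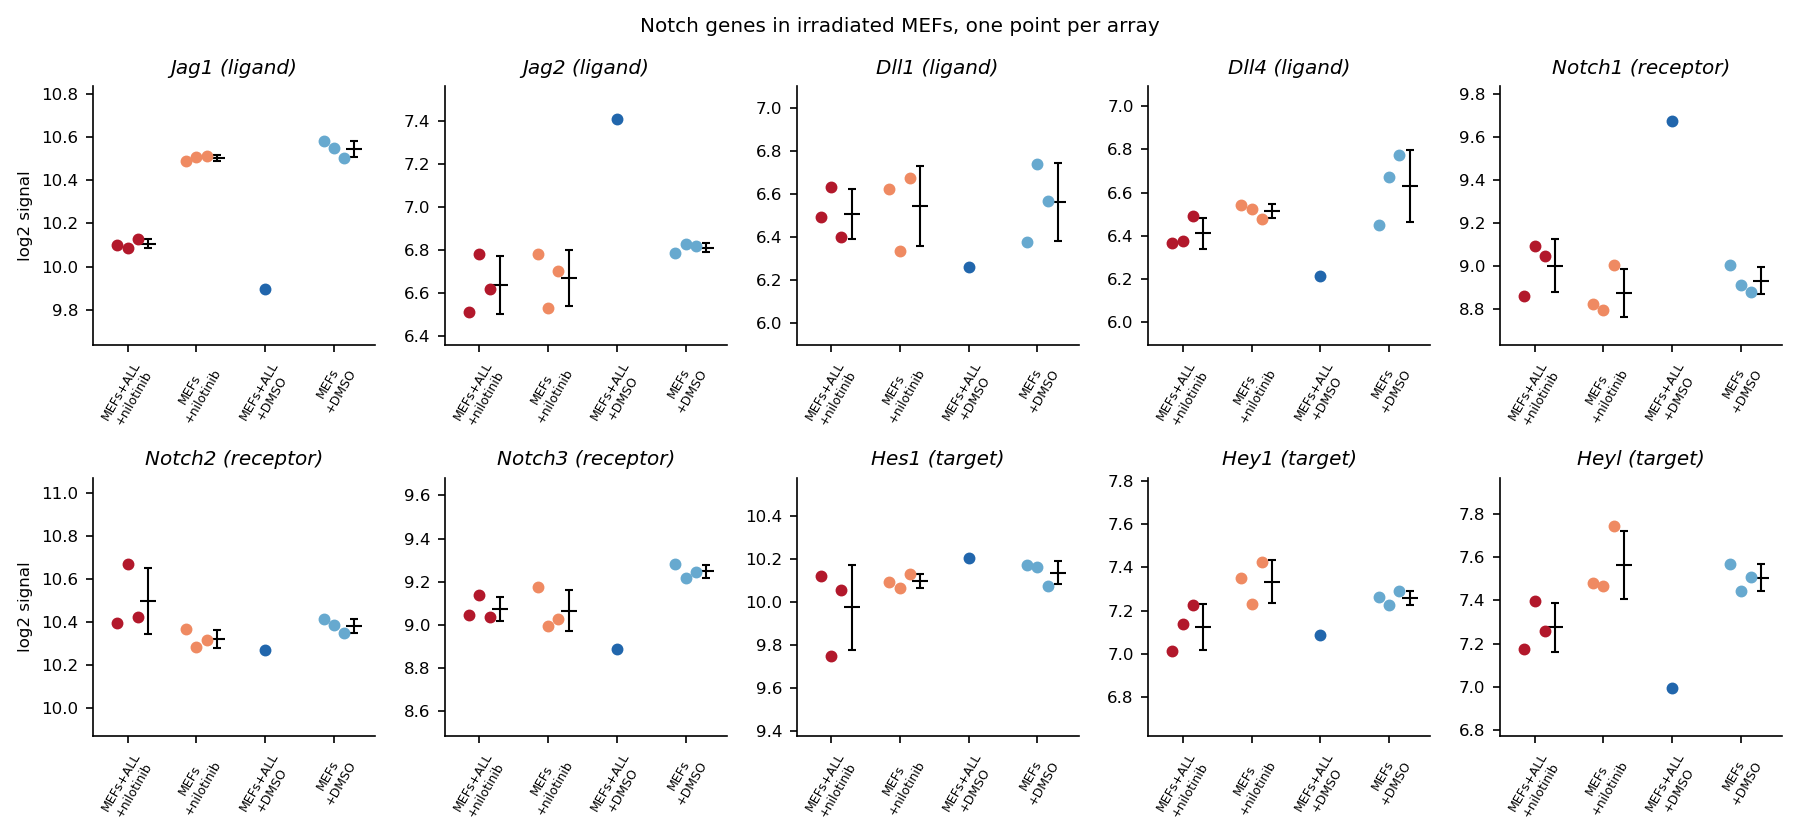
Log2 signal (y axis, each panel spanning the same number of log2 units) of the 10 Notch genes in the 4 groups (x axis). Points are arrays, and the black bar gives the mean and SD of groups of 3. Jag1 lies at 10.09 to 10.13 in MEFs + ALL + nilotinib and at 9.89 in MEFs + ALL + DMSO, below all arrays without ALL cells, and Jag2 and Notch1 are highest in the MEFs + ALL + DMSO array.

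No receptor gene passed the test between groups of 3 arrays. In the MEFs + ALL + DMSO array 2 of the 3 did against MEFs + DMSO (10.3% of all probesets). Notch1, the receptor best known from T-lineage lymphoid cells, had a signal (probeset 10481056) of 8.86, 9.10 and 9.05 in MEFs + ALL + nilotinib, 8.83, 8.80 and 9.00 in MEFs + nilotinib, 9.67 in MEFs + ALL + DMSO and 9.00, 8.91 and 8.88 in MEFs + DMSO. The 3 groups of 3 overlapped, and the lone array was above all 9 others. It was 0.74 above MEFs + DMSO (SE 0.12, interval 0.46 to 1.02, limma adjusted p = 0.00725), a 1.67-fold higher level, and this held in all 3 fits that left out an array. MEFs + ALL + nilotinib differed from the lone array by -0.67 (limma adjusted p = 0.0170, and 0.222 in a fit of these groups alone) and from MEFs + DMSO by 0.07 (interval -0.13 to 0.27, limma adjusted p = 0.736). The leukocyte gene Coro1a, which encodes an actin-binding protein, was at 10.5 in the same array against a mean of 7.22 in MEFs + DMSO.

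Notch2, the receptor known for marginal zone B cells and widely present in mesenchyme, was at 10.40, 10.67 and 10.42 in MEFs + ALL + nilotinib (probeset 10494595). It was at 10.37, 10.28 and 10.32 in MEFs + nilotinib, 10.27 in MEFs + ALL + DMSO and 10.41, 10.39 and 10.35 in MEFs + DMSO. The MEFs + ALL + nilotinib arrays were all above those of MEFs + nilotinib, with replicate 2 the highest. The difference was 0.18 (SE 0.08, interval -0.01 to 0.36, limma adjusted p = 0.559), and 0.09 without replicate 2 (adjusted p = 0.613). Against MEFs + DMSO it was 0.11 (limma adjusted p = 0.526) with replicate 2 and 0.03 (adjusted p = 0.816) without it.

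Notch3, a receptor known from mural cells, was at 9.04, 9.14 and 9.04 in MEFs + ALL + nilotinib, 9.17, 8.99 and 9.03 in MEFs + nilotinib, 8.89 in MEFs + ALL + DMSO and 9.28, 9.22 and 9.25 in MEFs + DMSO (probeset 10449775). All 7 arrays with ALL cells or nilotinib were below the 3 of MEFs + DMSO, an order whose share of all probesets was not counted. The difference from MEFs + DMSO was -0.18 in MEFs + ALL + nilotinib (interval -0.33 to -0.02, limma adjusted p = 0.258), -0.18 in MEFs + nilotinib (interval -0.34 to -0.03, limma adjusted p = 0.399) and -0.36 in MEFs + ALL + DMSO (interval -0.58 to -0.14, limma adjusted p = 0.0488). The last call was lost in all 3 fits without 1 of the MEFs + DMSO arrays, with adjusted p between 0.0951 and 0.105. MEFs + ALL + nilotinib and MEFs + nilotinib differed in Notch3 by 0.01 (interval -0.15 to 0.16, limma adjusted p = 0.985).

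The targets Hes1, Hey1 and Heyl encode transcriptional repressors of the basic helix-loop-helix family. None passed the test between groups of 3 arrays. Hes1 (probeset 10434925) was at 10.12, 9.75 and 10.06 in MEFs + ALL + nilotinib, 10.09, 10.07 and 10.13 in MEFs + nilotinib, 10.20 in MEFs + ALL + DMSO and 10.17, 10.16 and 10.07 in MEFs + DMSO. Replicate 2 of MEFs + ALL + nilotinib was the lowest of the 10 arrays, and the other 9 lay close together. The difference from MEFs + DMSO was -0.16 (interval -0.38 to 0.06, limma adjusted p = 0.452) with that array and -0.05 (adjusted p = 0.691) without it. Against MEFs + nilotinib it was -0.12 (interval -0.34 to 0.10) with that array and -0.0095 without it. For MEFs + ALL + DMSO over MEFs + DMSO the Hes1 difference was 0.07 (interval -0.24 to 0.38, limma adjusted p = 0.782).

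Hey1 (probeset 10497203) was at 7.01, 7.14 and 7.23 in MEFs + ALL + nilotinib, 7.35, 7.23 and 7.42 in MEFs + nilotinib, 7.08 in MEFs + ALL + DMSO and 7.26, 7.23 and 7.29 in MEFs + DMSO. Heyl (probeset 10507840) was at 7.17, 7.40 and 7.26, at 7.48, 7.47 and 7.75, at 6.99 and at 7.57, 7.44 and 7.51 in the same order. For both genes the 4 arrays with ALL cells were below the 6 without them, for Hey1 with values that meet at the second decimal. How many of all probesets show this order was not counted. The difference in MEFs + ALL + nilotinib over MEFs + nilotinib was -0.21 for Hey1 (SE 0.08, interval -0.39 to -0.03, limma adjusted p = 0.449). For Heyl it was -0.29 (SE 0.10, interval -0.51 to -0.07, limma adjusted p = 0.390). Over MEFs + DMSO the differences were -0.14 for Hey1 (limma adjusted p = 0.429) and -0.23 for Heyl (limma adjusted p = 0.283). In MEFs + ALL + DMSO over MEFs + DMSO, Heyl was lower by 0.51 (difference -0.51, interval -0.82 to -0.20, limma adjusted p = 0.0480) and the Hey1 difference was -0.18 (limma adjusted p = 0.338). The Heyl call was lost without any 1 of the MEFs + DMSO arrays (adjusted p 0.0832 to 0.103).

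**Figure D3:**
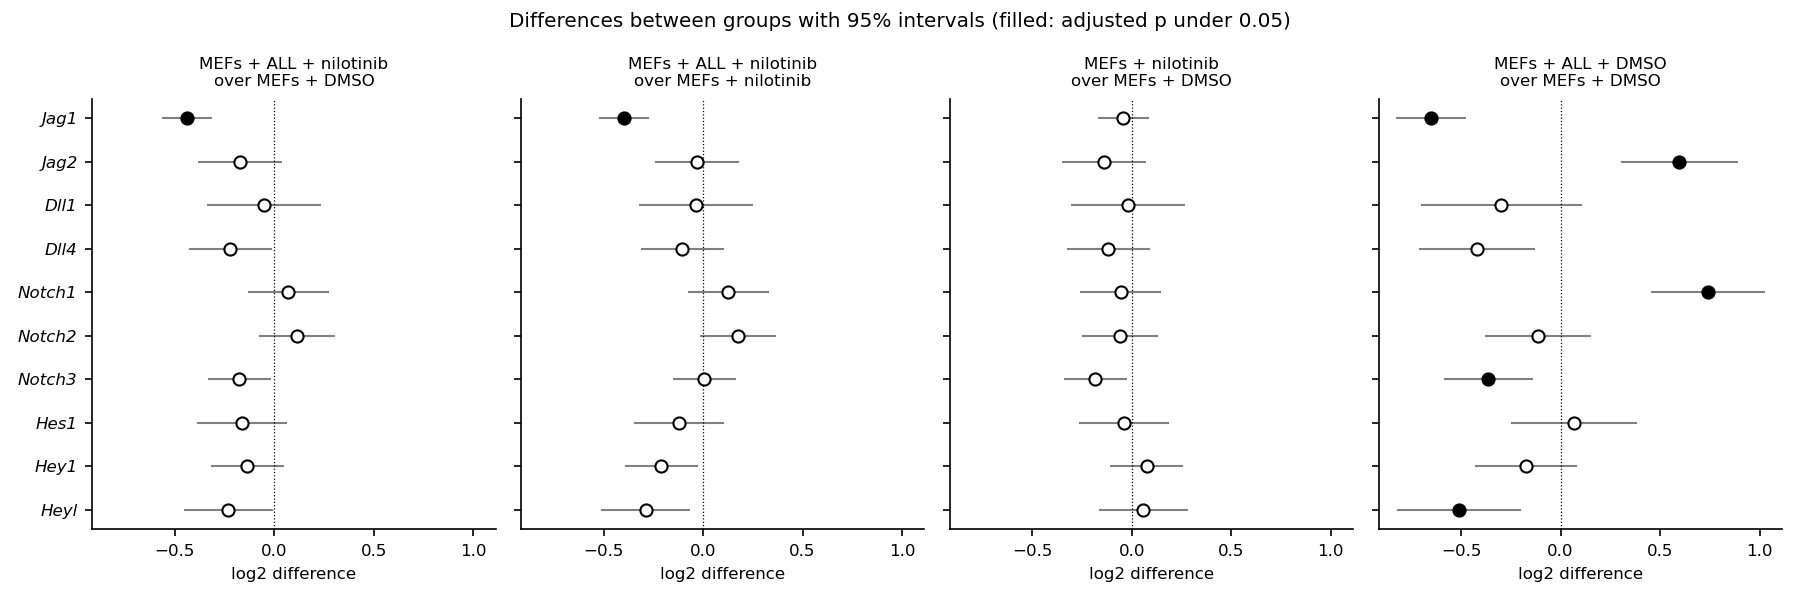
Log2 differences (x axis) of the 10 Notch genes (y axis) in 4 comparisons, with 95% intervals from the limma fit. Filled points passed an adjusted p of 0.05, which are Jag1 in both comparisons of MEFs + ALL + nilotinib, none in MEFs + nilotinib over MEFs + DMSO, and Jag1, Jag2, Notch1, Notch3 and Heyl in MEFs + ALL + DMSO over MEFs + DMSO.

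Of the 10 members, 1 was lower and 0 higher in MEFs + ALL + nilotinib over MEFs + DMSO, where 0.627% of all probesets passed, 0.503% as higher and 0.124% as lower. At an unadjusted p under 0.05 there were 4 members, all lower, against 16.2% of all probesets. The median difference was -0.17 against -0.0042 over all probesets, and 8 of 10 were below 0 (80.0%, against 51.0% of all). In 5 members the arrays of the groups did not overlap, all lower, against 10.6% of all probesets that were lower and 14.1% that were higher without overlap. Against MEFs + nilotinib 1 member was lower in MEFs + ALL + nilotinib, against 0.186% of all probesets, 0.149% as higher and 0.0366% as lower. At an unadjusted p under 0.05 there were 3 members, all lower, against 9.27% of all probesets. Of the members 3 were lower without overlap (6.62% of all probesets) and 1 higher (7.80% of all). In MEFs + nilotinib over MEFs + DMSO limma called 0 members and 0% of all probesets, and at an unadjusted p under 0.05 there was 1 member, Notch3, against 11.2% of all probesets. Here 2 members, Jag2 and Notch3, were lower without overlap, against 7.05% of all probesets lower and 13.6% higher in that way.

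For the MEFs + ALL + DMSO array against MEFs + DMSO 5 of the 10 members passed, 2 higher and 3 lower, against 10.3% of all probesets, 6.67% as higher and 3.59% as lower. At an unadjusted p under 0.05 there were 6 members, 2 higher and 4 lower, against 27.9% of all probesets. The count of 5 was 2 to 3 when any 1 of the MEFs + DMSO arrays was left out, since Jag2, Notch3 and Heyl then missed the threshold in every such fit, while Dll4 passed it without replicate 1. Set against this array, MEFs + ALL + nilotinib had 2 members that were lower, Jag2 and Notch1, against 4.34% of all probesets, 0.582% as higher and 3.76% as lower (17.7% at an unadjusted p under 0.05). No member passed for the interaction, against 3.95% of all probesets, 0.399% as higher and 3.55% as lower. Its values for Notch1 and Jag2 were -0.61 and -0.63 (limma adjusted p = 0.0664 and 0.0692), and at an unadjusted p under 0.05 there were 4 members, against 19.5% of all probesets.

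A wider list of the pathway held 72 further genes, of which 68 had a probeset. Between MEFs + ALL + nilotinib and MEFs + DMSO 0 of the 68 passed, with 13 higher and 6 lower at an unadjusted p under 0.05 (16.2% of all probesets passed that mark in either direction). Of the 11 Hes and Hey targets, members included, 8 were below 0 in MEFs + ALL + nilotinib over MEFs + DMSO (51.0% of all probesets), 10 over MEFs + nilotinib (52.0% of all) and 7 in MEFs + ALL + DMSO over MEFs + DMSO (58.9% of all). The median differences were -0.14, -0.12 and -0.26, and only Hes6 and Heyl passed, both in the third of these comparisons. Over MEFs + nilotinib, 0 of the 4 receptors and 0 of the 6 factors for ligand endocytosis were below 0, and none passed (lowest limma adjusted p = 0.559 and 0.394). In MEFs + nilotinib over MEFs + DMSO all 4 and all 6 were below 0 (49.4% of all probesets). In MEFs + ALL + nilotinib over MEFs + DMSO 2 of the 4 and 4 of the 6 were. The comparison over MEFs + nilotinib and that of MEFs + nilotinib over MEFs + DMSO share the MEFs + nilotinib arrays, with opposite sign. Low values in those arrays alone would shift their counts in opposite directions. The single differences that follow set MEFs + ALL + nilotinib against MEFs + DMSO, so that ALL cells and drug change together. Of the factors for ligand endocytosis, the ubiquitin ligase gene Mib2 differed by -0.24 (limma adjusted p = 0.160) and the epsin gene Epn1 by 0.19 (0.282). In MEFs + ALL + nilotinib, MEFs + nilotinib and MEFs + DMSO the means were 8.66, 8.65 and 8.89 for Mib2. For Epn1 they were 9.38, 9.14 and 9.19. Of the enzymes that cut or glycosylate the receptor, Furin, which cleaves Notch during secretion, differed by 0.29 (limma adjusted p = 0.202) and the Fringe gene Lfng, which adds sugars to it, by 0.22 (0.180). In the same order of groups the means were 10.01, 9.92 and 9.725 for Furin and 8.60, 8.52 and 8.39 for Lfng. The Mastermind-like coactivator genes Maml2 and Maml1 differed by 0.28 and 0.26 (limma adjusted p = 0.163 and 0.192). For Maml1 the means were 9.22, 9.19 and 8.96 in the same order. The negative regulators Itch, a ubiquitin ligase, and Nrarp, a feedback inhibitor, differed by -0.35 and -0.30 (limma adjusted p = 0.216 and 0.218). Among other targets Il6, an inflammatory cytokine gene, differed by 1.01 (limma adjusted p = 0.0663) and Snai1, a regulator of mesenchymal identity, by 0.27 (0.203). Bhlhe40, a repressor gene listed with the Hes and Hey targets, differed by 0.28 (limma adjusted p = 0.361).

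Il6 was at 8.19, 7.51 and 7.61 in MEFs + ALL + nilotinib, 6.98, 7.48 and 7.29 in MEFs + nilotinib, 7.84 in MEFs + ALL + DMSO and 6.83, 6.83 and 6.62 in MEFs + DMSO. The arrays with ALL cells were all above those of MEFs + DMSO, and MEFs + nilotinib lay between. In the MEFs + ALL + DMSO array 10 of the 68 further genes differed from MEFs + DMSO, 8 higher and 2 lower (6.67% and 3.59% of all probesets). The higher ones were Il2ra, the interleukin 2 receptor alpha chain (2.27, limma adjusted p = 1.38e-04), Myc (1.31, 3.39e-04), the Fringe gene Mfng (1.31, 0.00389), the coactivator gene Maml3 (1.30, 1.5e-05), Il6 (1.08, 0.0408), Hes6 (0.98, 9.56e-04), Lfng (0.72, 0.00222) and the Deltex gene Dtx2 (0.44, 0.0217). Notch4, a receptor known from endothelium, and Mib2 were lower, with differences of -0.38 and -0.39 (limma adjusted p = 0.0135 and 0.0397).

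The same array differed from MEFs + ALL + nilotinib in 7 of the 68 genes. In MEFs + ALL + nilotinib over MEFs + ALL + DMSO, 6 were lower, Il2ra (-2.15), Mfng (-1.49), Maml3 (-1.27), Myc (-1.06), Hes6 (-1.03) and Lfng (-0.50), and Notch4 was higher (0.32). Maml3 shows the pattern at the level of arrays, with 7.47, 7.52 and 7.49 in MEFs + ALL + nilotinib, 7.49, 7.49 and 7.55 in MEFs + nilotinib, 8.76 in MEFs + ALL + DMSO and 7.45, 7.49 and 7.45 in MEFs + DMSO. The other 9 arrays lay within a narrow band and the lone array above it, where the pro-B and B cell markers had a mean of 7.94.

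**Figure D4:**
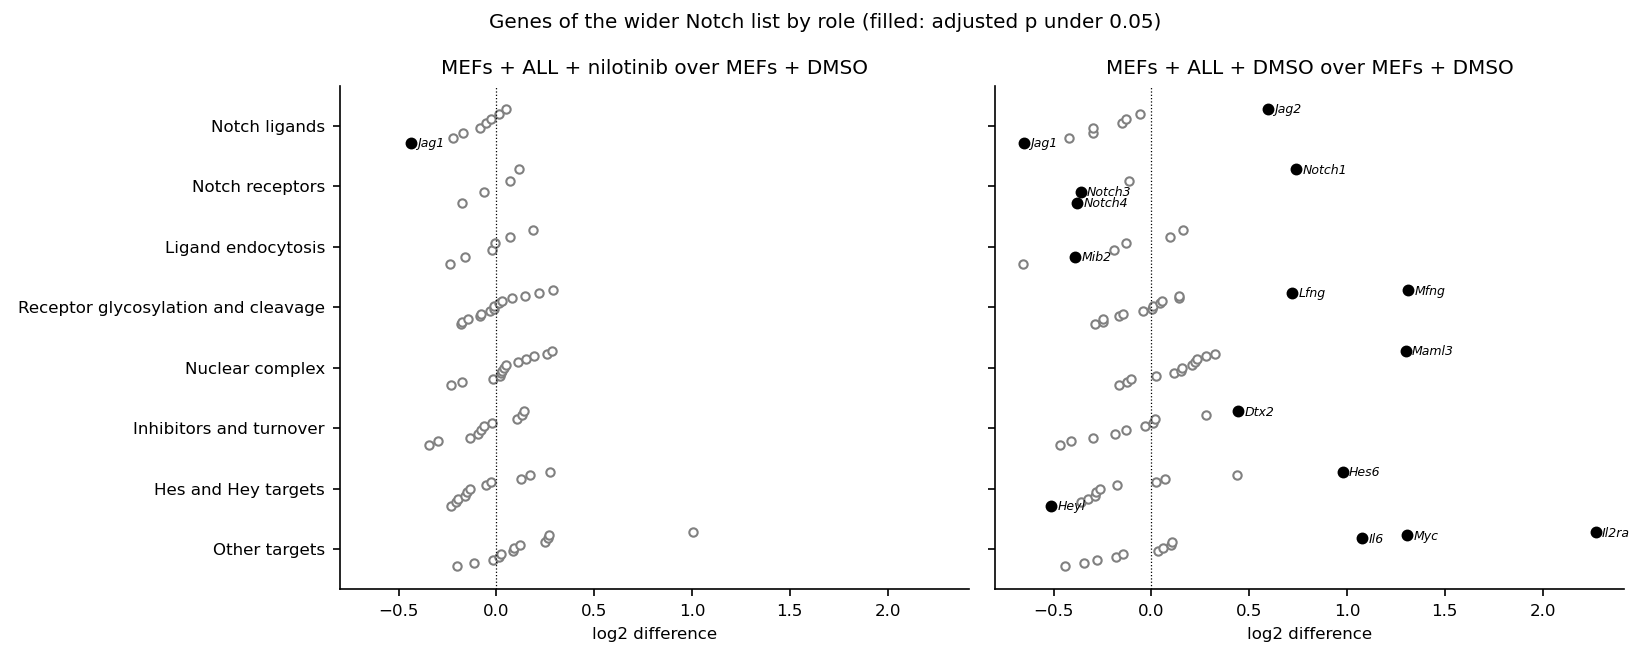
Log2 differences (x axis) of the genes of the wider Notch list, the 10 members included, by role (y axis) in MEFs + ALL + nilotinib over MEFs + DMSO (left) and MEFs + ALL + DMSO over MEFs + DMSO (right). Filled points passed an adjusted p of 0.05 and are named. Jag1 alone is filled on the left, and 15 genes are filled on the right, with Il2ra at 2.27 the farthest from 0.

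The genes whose pattern was most like that of Jag1 were found by Pearson correlation over the 10 arrays, which share their processing. They were Acot2, an acyl-CoA thioesterase gene (r = 0.986), Prss35, a serine protease-like gene (0.983), Ppm1h, a phosphatase gene (0.976), Chac1, which encodes a glutathione-degrading enzyme (0.974), and Lhfpl2 (0.971). Over the 9 arrays without MEFs + ALL + DMSO r was 0.989, 0.973, 0.962, 0.976 and 0.955 in that order. Since they were picked for following Jag1 on these arrays, their differences are a description. Against MEFs + DMSO, MEFs + ALL + nilotinib differed by -0.30 in Acot2, -0.61 in Prss35, -0.32 in Ppm1h, -0.89 in Chac1 and -0.30 in Lhfpl2. None of the 5 is on the wider Notch list as it was written here. Links of these genes to Notch outside that list were not examined.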

How the data were processed

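RNA of 10 dishes of irradiated MEFs was measured on 10 arrays. The deposited values are log2 probeset signals, which the authors made with Partek (as the submitters' processing notes and the methods say) and call RMA-normalized, with no version or further detail given in the sources used here. The table holds no columns of the authors' own comparisons, and 0 columns of other samples were met. It has 35557 probesets with 0 missing values from 2.09 to 15.0. The platform annotation gives a single symbol for 21789 probesets, more than 1 for 1621 and no symbol for 12147. Among the single-symbol probesets 21698 matched RefSeq genes of GRCm38.p6 by gene ID, which changed 0 symbols. Files name no genome build, so no gene coordinates are given beside those of the RefSeq promoter windows. Probes differ in brightness, so the signal of a probeset was set against that of another only in the alternative that keeps brighter probesets.

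The functions lmFit and eBayes of limma 3.58.1 (under R 4.3.3) were run on all 10 arrays, with 4 group means, 1 shared spread, Benjamini-Hochberg adjustment over all 35557 probesets and a threshold of 0.05. The group MEFs + ALL + nilotinib was compared with each of the other groups, MEFs + nilotinib and MEFs + ALL + DMSO were each compared with MEFs + DMSO, and the interaction of ALL cells and nilotinib was tested. Intervals are 95% intervals of that fit. Levels given as a percentage or a fold are ratios of geometric means. Precision is limited by how few arrays there are. The methods plated triplicates as separate dishes of MEFs, and p-values then measure the spread between these dishes.

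The members and lists were chosen with earlier results of these data known. Of the 72 further pathway genes, those past the threshold in any comparison and up to 2 per role with the largest difference in MEFs + ALL + nilotinib over MEFs + DMSO were named, as were the 5 genes most correlated with Jag1. Of the marker lists only those for fibroblasts, B cells, leukocytes, endothelium and mural cells were used. The value of the leukocyte marker that was higher in MEFs + ALL + nilotinib over MEFs + DMSO is not reported here. Means over the 8 macrophage, 8 epithelial and 8 neural markers lay between 8.06 and 8.32, between 6.32 and 6.48 and between 6.97 and 7.23 in all arrays. Single macrophage markers in MEFs + DMSO ran from a mean of 5.62 for Aif1 to 11.9 for Lyz2. The limma script was tested on simulated data. Alternatives were limma with trend and robust estimation, array weights, only the groups compared, no MEFs + ALL + DMSO array, median centring, quantile normalization, only brighter probesets, single-symbol probesets only, arithmetic means of anti-logged values, the mean over probesets of a gene, a replicate block, and leaving out each array in turn.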

Additional observations from a re-analysis of the deposited data

Results flagged for a closer look

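The following genes of the wider pathway list differed in their response to ALL cells between dishes with nilotinib and dishes with DMSO, by the interaction term of the limma fit across all probesets, which 3.95% of all probesets passed. Each rests on the single MEFs + ALL + DMSO array, in which the pro-B and B cell markers had a mean of 7.94 against 5.94 to 6.08 in MEFs + DMSO, and their part in these results was not tested.

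Il2ra differed by -0.03 with ALL cells under nilotinib and by 2.27 under DMSO, an interaction of -2.30 (SE 0.23, limma adjusted p = 6.75e-04). Its array values were 4.76, 4.95 and 4.64 in MEFs + ALL + nilotinib, 4.71, 4.90 and 4.82 in MEFs + nilotinib, 6.93 in MEFs + ALL + DMSO and 4.65, 4.41 and 4.93 in MEFs + DMSO. Mfng had an interaction of -1.58 (SE 0.24, limma adjusted p = 0.00651), with effects of -0.27 under nilotinib and 1.31 under DMSO. The value for Maml3 was -1.32 (SE 0.09, limma adjusted p = 7.70e-05), with effects of -0.02 and 1.30. Myc had -1.30 (SE 0.16, limma adjusted p = 0.00182), with effects of 0.01 and 1.31, and array values of 10.04, 9.81 and 9.82 in MEFs + ALL + nilotinib, 10.95 in MEFs + ALL + DMSO and 9.64, 9.66 and 9.62 in MEFs + DMSO. For Hes6 the interaction was -1.07 (SE 0.14, limma adjusted p = 0.00286), with effects of -0.09 and 0.98. For Lfng it was -0.64 (SE 0.12, limma adjusted p = 0.0195), with effects of 0.08 and 0.72.

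Notch4 went the other way, with an interaction of 0.43 (SE 0.09, limma adjusted p = 0.0317) and effects of 0.05 under nilotinib and -0.38 under DMSO. Its arrays read 7.36, 7.35 and 7.35 in MEFs + ALL + nilotinib, 7.30, 7.30 and 7.31 in MEFs + nilotinib, 7.04 in MEFs + ALL + DMSO and 7.42, 7.43 and 7.39 in MEFs + DMSO, so that the lone array was the lowest of the 10.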

How the results depend on the processing

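Of the alternatives for the differences of single members, 833 counted as kept, 31 lost the call, 8 gained one and 20 changed sign, all 20 of them differences that had not passed. Kept means the same direction and side of the threshold, except for the arithmetic means. Those have no p-value and counted as kept when the shift was below the larger SD of the groups compared. The mean over probesets of a gene could change nothing, since each member had 1 probeset. In MEFs + ALL + nilotinib over MEFs + DMSO the count of members called was 1, and 0 with only the groups compared and 0 with the replicate block (Jag1 adjusted p = 0.0770 and 0.116). Over MEFs + nilotinib it was 1, and 0 with only the groups compared, 0 with median centring and 0 with the replicate block (Jag1 adjusted p = 0.260, 0.0611 and 0.218). For MEFs + ALL + DMSO over MEFs + DMSO it was 5, and 3 with only the groups compared. For MEFs + ALL + nilotinib over MEFs + ALL + DMSO it was 2, and 0 with only the groups compared and 1 among brighter probesets, which leave out Jag2, Dll1 and Dll4. For the interaction it was 0, and 1 with trend and robust estimation, 2 with array weights, 1 with median centring and 1 among brighter probesets. The Heyl call in MEFs + ALL + DMSO was also lost with median centring and with quantile normalization.

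With the members included, the wider list had 1 call in MEFs + ALL + nilotinib over MEFs + DMSO, and 3 with trend and robust estimation, 5 with array weights, 0 with only the groups compared, 3 among brighter probesets and 0 with the replicate block. Against MEFs + nilotinib it had 1, and 2 with trend and robust estimation and 0 each with only the groups compared, median centring and the replicate block. For MEFs + ALL + DMSO over MEFs + DMSO it had 15, and 23 with array weights. For MEFs + ALL + nilotinib over MEFs + ALL + DMSO it had 9, and 2 with only the groups compared. The cause of these shifts was not tested, beyond the fewer arrays in the fits of the groups compared.

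Leaving out each array in turn gave 0 to 1 members in MEFs + ALL + nilotinib over MEFs + DMSO, 0 to 0 over MEFs + nilotinib, 2 to 3 in MEFs + ALL + DMSO over MEFs + DMSO, and 0 to 1 for the interaction. For the wider list it gave 0 to 1, 0 to 0, 10 to 11 and 5 to 9 in the same order.

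Signs changed as follows. Notch3 in MEFs + ALL + nilotinib over MEFs + nilotinib was -0.01 (-0.0071) with array weights and -0.0042 with quantile normalization, and Dll1 in MEFs + nilotinib over MEFs + DMSO was 0.0018 with median centring and 0.0039 with quantile normalization. Without 1 array at a time, Dll1 ran from -0.14 to 0.036 in MEFs + ALL + nilotinib over MEFs + DMSO, from -0.14 to 0.030 over MEFs + nilotinib, and from -0.11 to 0.087 in MEFs + nilotinib over MEFs + DMSO. Against MEFs + nilotinib, Jag2 ran from -0.10 to 0.031 and Notch3 from -0.028 to 0.062 in MEFs + ALL + nilotinib. Heyl ran from -0.033 to 0.11 in MEFs + nilotinib over MEFs + DMSO, and Hey1 from -0.011 to 0.096 in MEFs + ALL + nilotinib over MEFs + ALL + DMSO and from -0.087 to 0.022 for the interaction.

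The replicate numbers name dishes. Same-numbered arrays of different groups deviated together with r from -0.293 to 0.241, above 0.1 in 2 of 9 pairs, and 1 of 9 arrays correlated best with its own number. The replicate block gave 8 probesets past the threshold in place of 223 in MEFs + ALL + nilotinib over MEFs + DMSO, and 12 in place of 66 against MEFs + nilotinib. No paired analysis was possible for comparisons with MEFs + ALL + DMSO because its array carries no number.

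The values used here carry no background or detection call, so signal over background was not measured. Every value that uses MEFs + ALL + DMSO rests on 1 array.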
